A study of Mus musculus with 6 samples.

Results

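Transcripts of 10 circadian clock and PAR bZIP genes were followed across 6 kidney arrays of mice with TGF-β1 driven renal fibrosis. The genes are Arntl, Clock, Per1, Per2, Per3, Nr1d1, Nfil3, Dbp, Hlf and Tef, chosen by symbol, and all 10 were measured, among 20416 genes in all. A gene was represented by the exon probe sets that the array annotation assigned to that symbol and to no other, 153 probe sets for the 10 genes out of 241576 on the array. The B6-TGFbeta group (replicates 1, 2 and 3) and the CBAxB6-TGFbeta group (replicates 4, 5 and 6) held 3 arrays each. The first is named for the C57BL/6 strain and carries the word WT in its labels. The second is named for a cross of CBA and B6 and carries the word KO, with no deleted gene named. Both groups are labelled as having induced renal fibrosis, and no kidney without TGFbeta was analysed here. A difference present before fibrosis and a difference in the response to it therefore cannot be told apart. The labels do not give the source of TGF-β1, any promoter driving it, the animals' age or whether RNA was pooled, and p-values measure only the spread between these arrays. They describe a light and dark cycle but not the hour at which kidneys were taken, so a changed level of a clock transcript and a shifted phase of its daily rhythm cannot be told apart.

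The mammalian clock is a transcriptional loop. CLOCK and BMAL1, the product of Arntl, bind E-boxes and activate the Per and Cry genes, whose proteins return to inhibit them. REV-ERBα, the product of Nr1d1, is also driven by E-boxes and represses Arntl and Nfil3 through ROR elements. The PAR bZIP factors DBP, HLF and TEF are outputs of the loop that activate genes through D-boxes, which NFIL3 (E4BP4) occupies as a repressor. In the kidney the loop runs in tubule cells and is known for daily rhythms of salt and water transport, and mice without the 3 PAR bZIP factors have altered blood pressure and impaired detoxification.

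Stretches upstream of transcription start sites are shown where they hold the letters of a clock-related element or of a cyclic AMP response element. Members whose transcripts fell are set beside members whose did not pass. The stretches come from RefSeq (GRCm38.p6), where 9 of the 10 genes had an entry and Per2 had none. They run 5′ to 3′ on the gene's strand with the matched element in capitals. Per3 lies on the minus strand (chr4:151044790-151044896) with a pair of D-boxes, at 205 and 158 bases before the start, and Tef on the plus strand has an E-box at each of its 2 start sites (chr15:81802520-81802577 and chr15:81811250-81811307). Nr1d1 (chr11:98775378-98775431, minus strand) has an E′-box, Hlf (chr11:90390918-90390952, minus strand) a cyclic AMP response element, Per1 (chr11:69098757-69098814, plus strand) an E-box and Nfil3 (chr13:52981040-52981077, minus strand) a ROR element.
Per3: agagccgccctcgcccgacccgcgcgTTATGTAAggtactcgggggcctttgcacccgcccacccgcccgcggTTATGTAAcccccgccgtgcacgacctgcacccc
Tef start 1: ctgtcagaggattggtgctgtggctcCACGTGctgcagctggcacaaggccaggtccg
Tef start 2: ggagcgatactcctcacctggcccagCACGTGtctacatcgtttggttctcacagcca
Nr1d1: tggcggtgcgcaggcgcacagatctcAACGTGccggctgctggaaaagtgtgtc
Hlf: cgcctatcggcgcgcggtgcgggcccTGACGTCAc
Per1: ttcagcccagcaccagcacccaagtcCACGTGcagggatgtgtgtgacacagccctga
Nfil3: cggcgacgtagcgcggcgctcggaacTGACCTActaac

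Both strands were searched from 250 bases before to 50 bases after each start. The E-box was CACGTG, found in 7.15% of all 32851 promoters of that length, and the E′-box was CACGTT, found in 4.68%. The D-box was TTATGTAA or TTACGTAA, found in 1.06%. The ROR element was TAGGTCA or TGGGTCA, found in 6.45%, and the cyclic AMP response element was TGACGTCA, found in 1.79%. A ROR element also lay 30 bases after a start of Arntl, and none of these letters occurred in the windows of Dbp and Clock. The elements describe the sequence of these windows and no binding was measured.

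Of the 10 genes, 5 fell in CBAxB6-TGFbeta kidneys and none rose, while across all genes tested 4.57% were lower, 3.08% were higher and 7.65% passed in either direction. These were Hlf, Tef, Per2, Per3 and Nr1d1, by 1.38-fold to 2.37-fold. Arntl, Clock, Per1, Dbp and Nfil3 did not pass. The median log2 difference of the 10 genes was -0.37, against 0.018 over all genes. The 10 genes were chosen with earlier results of these data known, so neither contrast is an independent test of the set. In whole kidney, fewer cells of a type and less RNA per cell cannot be told apart. The groups did not overlap in 7 of the 10, where 26.8% of all genes did not overlap. A gene passed at an adjusted p under 0.05 in limma with Benjamini-Hochberg adjustment over all genes, and differences are CBAxB6-TGFbeta minus B6-TGFbeta throughout.

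**Figure D1:**
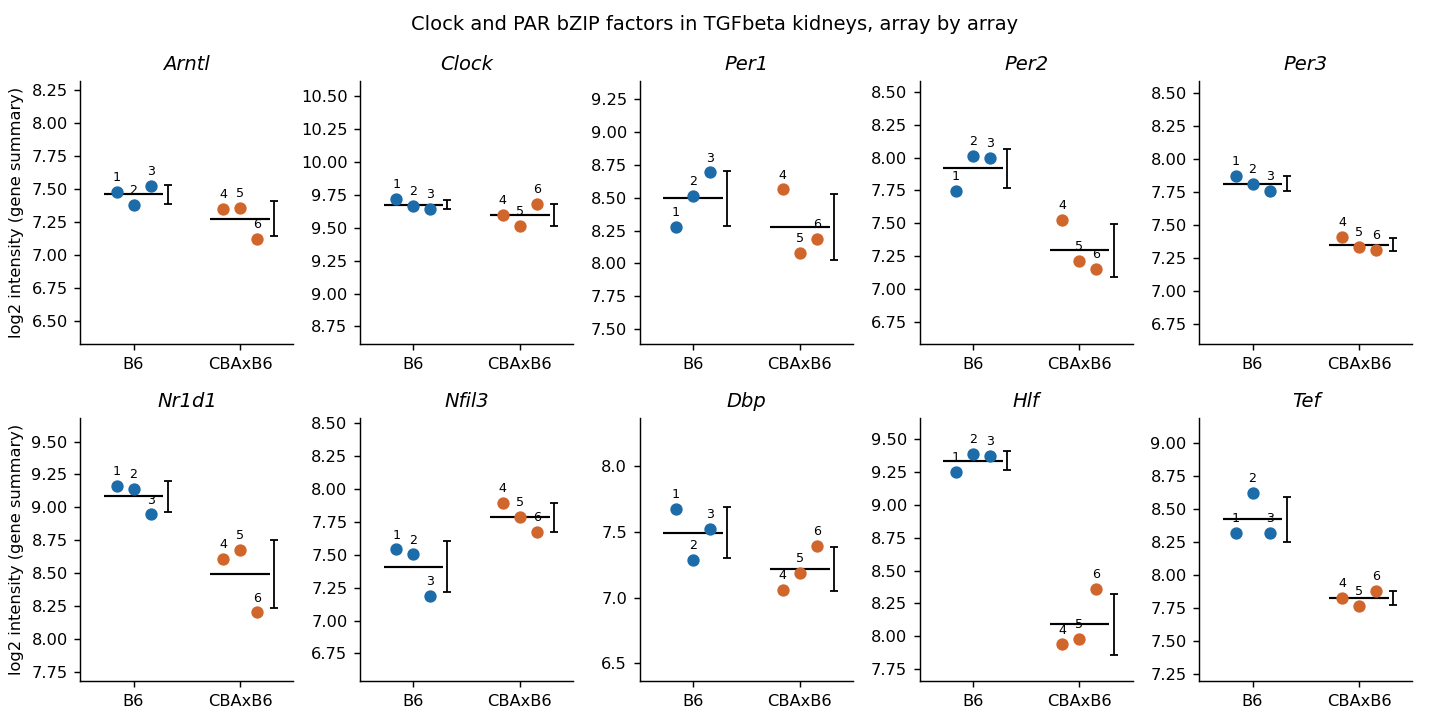
Log2 intensity (y axis, gene summary over probe sets) of each of the 10 genes in the 3 B6-TGFbeta and 3 CBAxB6-TGFbeta arrays, with replicate numbers above the points, horizontal lines at group means and bars of 1 SD. Each panel spans 2 log2 units around its own centre, and the widest gap between groups is that of Hlf, whose B6-TGFbeta arrays lie at 9.25 to 9.38 and CBAxB6-TGFbeta arrays at 7.94 to 8.36.

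Hlf, the hepatic leukemia factor, had log2 intensities of 9.25, 9.38 and 9.37 in B6-TGFbeta and of 7.94, 7.98 and 8.36 in CBAxB6-TGFbeta. The B6-TGFbeta arrays lay close together, and CBAxB6-TGFbeta replicate 6 stood above the other two of its group. Group means of 9.34 ± 0.072 and 8.09 ± 0.23 (SD, n = 3 each) gave a log2 difference of -1.24 (SE 0.13, 95% interval -1.53 to -0.96), which is 2.37-fold lower, with an adjusted p of 0.000891 in limma.

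Tef, the thyrotroph embryonic factor, had 8.32, 8.62 and 8.32 in B6-TGFbeta and 7.83, 7.77 and 7.88 in CBAxB6-TGFbeta. Replicate 2 was the highest array, and the CBAxB6-TGFbeta arrays were alike. Tef fell by 1.51-fold, with a log2 difference of -0.60 (SE 0.11, 95% interval -0.85 to -0.35) and an adjusted p of 0.0138. Dbp, the D-box binding protein, whose gene CLOCK and BMAL1 drive directly, had 7.67, 7.29 and 7.52 against 7.06, 7.19 and 7.39. The groups overlapped, since B6-TGFbeta replicate 2 lay below CBAxB6-TGFbeta replicate 6. Its log2 difference was -0.28 (SE 0.13, 95% interval -0.57 to 0.016) with an adjusted p of 0.26, and it did not pass. With the mean of the probe sets the Dbp difference was -0.54 (adjusted p 0.0501), without the dimmer probe sets -0.57 (adjusted p 0.0558) and on the brightest one -0.67 (adjusted p 0.0679). With each array left out and gene values recomputed it ran from -0.44 to -0.13.

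Whether genes of 1 role changed unequally was asked with log2 ratios within each array, for 8 pairs, by a two-sided exact permutation test, which cannot go below 0.1 with 3 arrays against 3. The log2 ratio of Dbp to Hlf went from -1.84 ± 0.26 to -0.88 ± 0.088 (SD, n = 3 each), with no overlap (exact p = 0.1, 0.2 adjusted over the 8 pairs). The ratio of Hlf to Tef went from 0.91 ± 0.14 to 0.27 ± 0.19, also without overlap and at the same p values in the exact test. Both separations were fixed by the ranges of the single genes, however the arrays of a group were matched. Neither ratio therefore adds a further result. The ratio of Dbp to Tef overlapped between groups, with a difference of 0.32 (exact p = 0.2).

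In the negative arm, Per2 and Per3 fell and Per1 did not pass. PER proteins carry CRY into the nucleus to shut off CLOCK and BMAL1. Per2 had 7.75, 8.01 and 7.996 in B6-TGFbeta and 7.53, 7.21 and 7.15 in CBAxB6-TGFbeta. Replicate 1 was the lowest B6-TGFbeta array and replicate 4 the highest CBAxB6-TGFbeta array, and the groups stayed apart. The log2 difference was -0.62 (SE 0.13, 95% interval -0.91 to -0.33), 1.54-fold lower, with an adjusted p of 0.0212. Per3 had 7.87, 7.81 and 7.76 against 7.41, 7.33 and 7.31. Both groups were tight, with SDs of 0.058 and 0.0498, and the gap between them was several times the spread within either. Its log2 difference was -0.46 (SE 0.092, 95% interval -0.67 to -0.26), 1.38-fold lower, with an adjusted p of 0.0176.

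Per1, the PER gene that glucocorticoids and cyclic AMP induce acutely, had 8.28, 8.51 and 8.69 in B6-TGFbeta and 8.56, 8.08 and 8.19 in CBAxB6-TGFbeta. CBAxB6-TGFbeta replicate 4 lay within the B6-TGFbeta range. Its log2 difference was -0.22 (SE 0.15, 95% interval -0.56 to 0.13), with an adjusted p of 0.47. The log2 ratio of Per1 to Per2 was 0.57 ± 0.11 in B6-TGFbeta and 0.98 ± 0.097 in CBAxB6-TGFbeta (SD, n = 3 each), without overlap (exact p = 0.1, 0.2 adjusted over the 8 pairs). The ratios of Per1 to Per3 and of Per2 to Per3 overlapped, with differences of 0.25 and -0.16 (exact p = 0.4 and 0.3).

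Of the pair of repressors, Nr1d1 fell. It had 9.16, 9.14 and 8.95 in B6-TGFbeta and 8.61, 8.68 and 8.20 in CBAxB6-TGFbeta, with replicate 6 the lowest array of all. The log2 difference was -0.59 (SE 0.14, 95% interval -0.90 to -0.27), 1.502-fold lower, with an adjusted p of 0.0352. Nr1d1 overlaps the thyroid hormone receptor gene Thra on the opposite strand, and 1 probe set that names both was left out. Nfil3, the D-box repressor, had 7.54, 7.50 and 7.19 against 7.89, 7.79 and 7.67. Every CBAxB6-TGFbeta array lay above every B6-TGFbeta array, but the log2 difference of 0.37 (SE 0.12, 95% interval 0.099 to 0.65) did not pass, with an adjusted p of 0.106. The log2 ratio of Nr1d1 to Nfil3 went from 1.67 ± 0.075 to 0.71 ± 0.18 (SD, n = 3 each), a difference of -0.96 without overlap (exact p = 0.1, 0.2 adjusted over the 8 pairs). That separation was fixed by the values of the single genes, which lay apart in opposite directions, so the ratio adds no further result.

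The positive arm did not pass. Arntl had 7.48, 7.38 and 7.52 in B6-TGFbeta and 7.35, 7.35 and 7.12 in CBAxB6-TGFbeta, groups that did not overlap, with a log2 difference of -0.18 (SE 0.10, 95% interval -0.42 to 0.053, adjusted p 0.364). Its lowest array was CBAxB6-TGFbeta replicate 6, which was also the lowest for Nr1d1. Clock had 9.72, 9.67 and 9.64 against 9.60, 9.51 and 9.68, which overlapped, with a log2 difference of -0.079 (SE 0.094, 95% interval -0.29 to 0.13, adjusted p 0.701). The log2 ratio of Arntl to Clock differed by -0.10 with overlapping groups (exact p = 0.6).

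**Figure D2:**
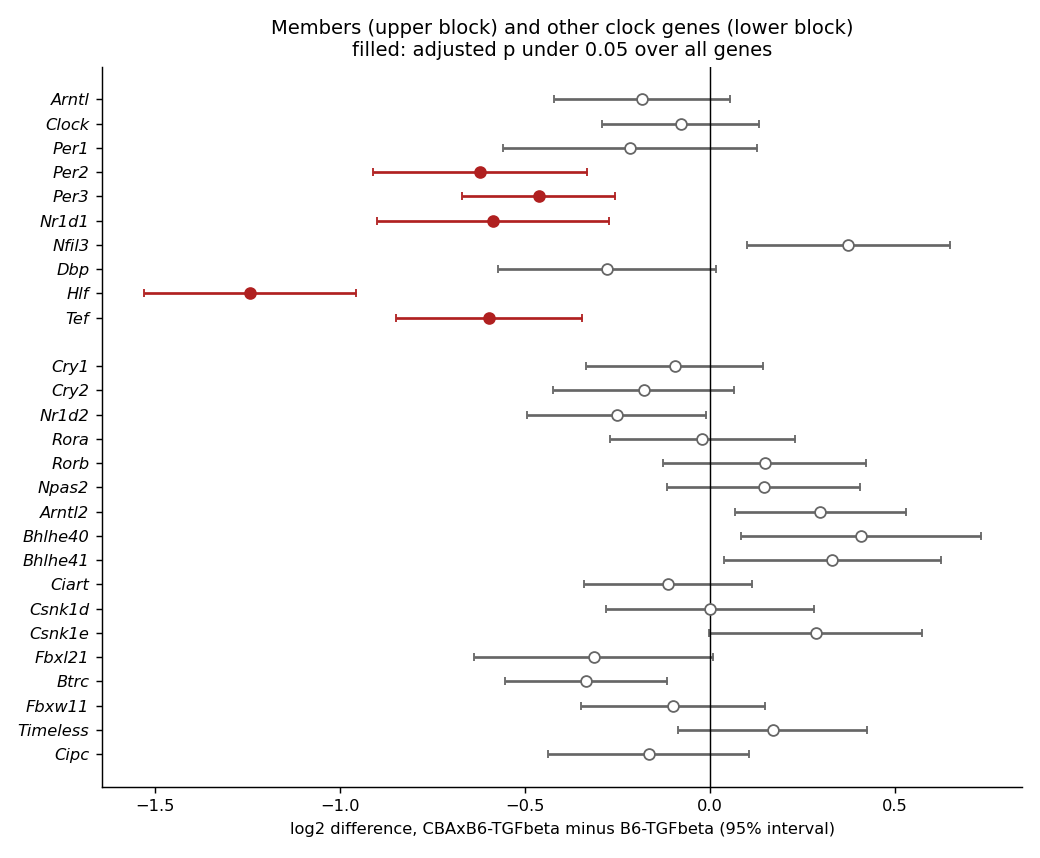
Log2 difference, CBAxB6-TGFbeta minus B6-TGFbeta (x axis), with its 95% interval from limma for the 10 genes (upper block) and for 17 other clock genes (lower block). Filled red points passed at an adjusted p under 0.05 over all genes, which holds for Per2, Per3, Nr1d1, Hlf and Tef, and open points did not.

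Of the 5 genes that fell, Hlf passed in 27 of 29 alternatives, Tef in 19, Per3 in 17, Nr1d1 in 12 and Per2 in 11. When each gene was read from its brightest probe set, 1 of the 10 genes passed, Hlf, at a log2 difference of -1.39. Nr1d1 and Per3 missed the threshold there with differences larger in size, at -0.71 and -0.57 (adjusted p 0.0611 and 0.0881). Per2 and Tef were smaller in size, at -0.44 and -0.35 (adjusted p 0.23 and 0.319). With any 1 of the 6 arrays left out and the gene values recomputed, either Hlf alone passed or, without B6-TGFbeta replicate 3 or CBAxB6-TGFbeta replicate 5, none did (adjusted p of Hlf 0.0515 and 0.0662), while with the mean of the probe sets 3 to 5 passed. In none of the alternatives run did the difference of any of the 10 genes change sign.

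Probe sets of a gene share their RNA and are not replicates, and they differ in brightness. All probe sets of Per2 (21), Per3 (23), Nr1d1 (8), Dbp (7), Hlf (8) and Tef (9) were lower in CBAxB6-TGFbeta. Tested singly over all probe sets on the array, 4 of the 153 passed, all in Hlf and all lower, where 0.535% of all probe sets passed in either direction and 0.299% were lower. The groups did not overlap in 46 of the 153, where 20.4% of all probe sets did not overlap. The 4 Hlf probe sets had log2 differences of -1.92, -1.62, -1.39 and -1.25, with adjusted p of 0.0333, 0.0343, 0.0477 and 0.0377 in limma. The other Hlf probe sets ranged from -1.39 to -0.064. The 3 smallest differences, -0.064, -0.43 and -0.93, were those of the 3 dimmest Hlf probe sets, with B6-TGFbeta means of 7.10, 7.41 and 6.62 against 9.31 to 10.48 in the other 5. The part of probe response in this range was not tested. No Hlf probe set passed when any 1 array was left out.

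Tef probe sets ranged from -1.26 to -0.076, and its brightest probe set stood at -0.35. Per2 ranged from -1.44 to -0.16 and Per3 from -1.47 to -0.0017. Nr1d1 had the narrowest range of the genes that fell, from -0.90 to -0.27. Dbp ranged from -1.72 to -0.10 with a value of -0.67 on its brightest probe set, larger in size than the gene value of -0.28. Arntl, Clock and Per1 had probe sets on both sides of zero, with 7 of 22, 8 of 25 and 5 of 27 higher. Nfil3 had 3 probe sets, at 0.71, 0.57 and -0.035, so its gene value rests on few measurements. Probe sequences are not in the files used here, and the part of strain differences under a probe was not tested.

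**Figure D3:**
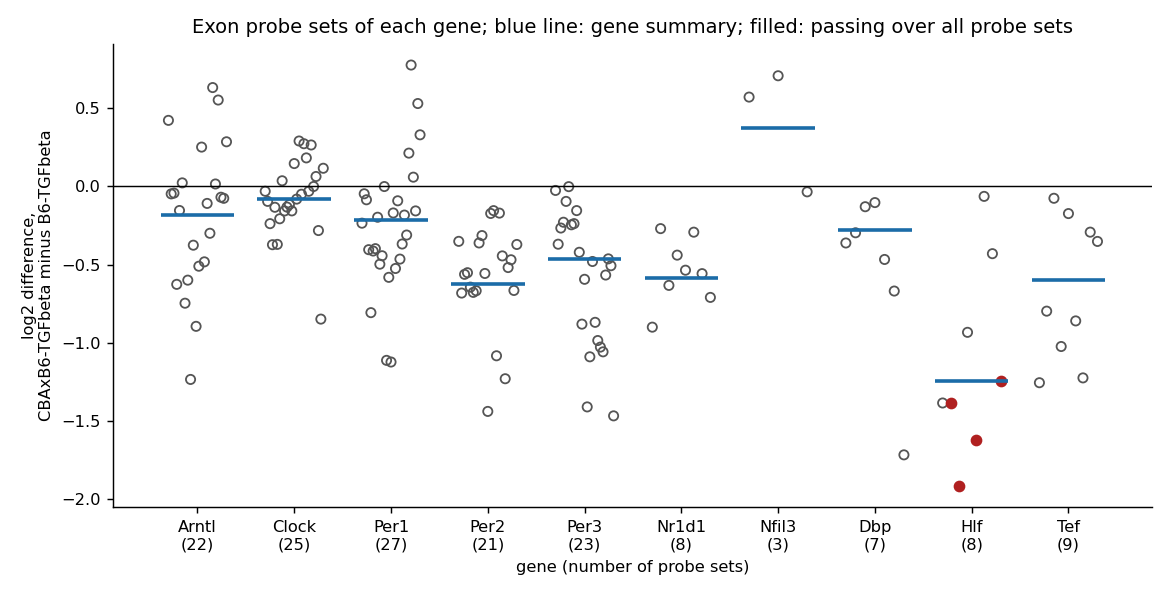
Log2 difference, CBAxB6-TGFbeta minus B6-TGFbeta (y axis), of each of the 153 exon probe sets, spread within a gene in order of probe set number, with the number of probe sets in brackets. Blue lines are the gene values, and filled red points are the 4 probe sets, all of Hlf, that passed over all probe sets of the array.

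Spread within groups is of interest for clock genes because their transcripts move through the day. Per3 and Clock were among the steadiest genes measured, with residual SDs of 0.054 and 0.066 on the log2 scale, at percentiles 4.5 and 8.1 of all genes. Per1 and Nr1d1 were the most variable of the 10, with 0.23 and 0.20, at percentiles 85.6 and 77.9, against a median of 0.14 over all genes. In CBAxB6-TGFbeta replicate 6, Nr1d1 and Arntl lay 0.29 and 0.16 below their group means while Hlf and Dbp lay 0.27 and 0.18 above theirs. In CBAxB6-TGFbeta replicate 4, Per1 and Per2 lay 0.28 and 0.23 above their means. By Pearson correlation over the 6 arrays, the genes brighter than the median gene that were most like Dbp were Yipf6, Pard6b and 6720456H20Rik (r of 0.977, 0.975 and 0.968), and those most like Arntl were Arap3, Kifc3 and Tmem86a (0.995, 0.995 and 0.993). These are descriptions over 6 points that fall into 2 groups.

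None of 17 other measured clock genes passed, in a list of 20. Their log2 differences were positive in 8 and negative in 9, from -0.34 to 0.41, with a median of -0.021. Of the 17, 5 had an unadjusted p under 0.05 in limma, as did 4399 of all 20416 genes (21.5%). The smallest p were those of Btrc, a ubiquitin ligase subunit that marks PER for degradation (log2 difference -0.34, SE 0.097, adjusted p 0.0705), and Arntl2, a paralogue of Arntl (0.30, SE 0.10, adjusted p 0.124). With the mean of the probe sets of a gene, 4 passed, namely Arntl2, Btrc and the E-box repressors Bhlhe40 and Bhlhe41. In the main comparison Bhlhe40 stood at 0.41 (SE 0.14, adjusted p 0.134 in limma), without overlap, and Bhlhe41 at 0.33 (SE 0.13, adjusted p 0.178). The sign of Arntl2 turned on its brightest probe set, at -0.48. Nr1d2, the paralogue of Nr1d1, stood at -0.25 (SE 0.11, adjusted p 0.213), and the CRY genes Cry1 and Cry2 had -0.095 and -0.18. These 3 were named after their values were seen.

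Of 15 genes listed as clock outputs or PAR bZIP targets, 5 were lower, none was higher and 10 missed the threshold. Over all genes 4.57% were lower and 3.08% higher. An unadjusted p under 0.05 in limma was seen for 11 of the 15, beside 21.5% of all genes. The median of the list was -0.43 on the log2 scale, against 0.018 over all genes. The list was chosen with earlier results of these data known. Slc9a3, the sodium-proton exchanger NHE3 of the proximal tubule, fell by 1.07 on the log2 scale (SE 0.10, adjusted p 0.000722). Scnn1a, the alpha subunit of the epithelial sodium channel, stood at -0.86 (SE 0.16, adjusted p 0.0141) and Ppara, the lipid-sensing nuclear receptor, at -0.72 (SE 0.13, adjusted p 0.0128). Nampt, which makes a precursor of NAD, stood at -0.57 (SE 0.13, adjusted p 0.0293) and Por, the electron donor of cytochromes P450, at -0.47 (SE 0.096, adjusted p 0.0201). On the brightest probe sets 1 of the 15 passed, Slc9a3, at -1.12 (adjusted p 0.0449). Ppara stood there at -0.75 (adjusted p 0.0547), while Scnn1a, Nampt and Por were smaller in size, at -0.35, -0.27 and -0.28 (adjusted p 0.236, 0.365 and 0.287). With each array left out and gene values recomputed 0 to 2 did. Of 13 glucocorticoid-responsive genes, none passed and 2 had an unadjusted p under 0.05 in limma, again beside 21.5% of all genes. Cebpd and Klf15 had the smallest p, with log2 differences of 0.51 (SE 0.16, adjusted p 0.103) and -0.28 (SE 0.10, adjusted p 0.134), the latter turning to 0.14 on its brightest probe set.

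Markers of kidney cell types differed between the groups in the same arrays. All 10 proximal tubule markers were lower, with a median log2 difference of -1.27, and their mean log2 intensity was 10.91 to 11.09 in B6-TGFbeta and 9.29 to 9.73 in CBAxB6-TGFbeta. Of 7 markers of the loop of Henle and distal tubule 6 were lower (median -1.04, list means 10.64 to 10.81 and 9.25 to 9.77), and of 6 collecting duct markers 4 were lower (median -0.60, 8.57 to 8.76 and 7.88 to 8.03). Macrophage markers were higher in 7 of 8 (median 1.44, 7.28 to 7.58 and 8.51 to 9.05), and fibroblast markers in 2 of 6 (median 0.46, 9.13 to 9.31 and 9.66 to 9.95). Hlf, Tef, Per2, Per3 and Nr1d1 were lower in the same group as the tubule and duct markers, and the other clock and PAR bZIP members did not pass. The part of cell composition in the differences of the members was not tested. Slc9a3 and Scnn1a are themselves tubule genes. Aqp2 was counted both among the 15 clock outputs and among the collecting duct markers (log2 difference -0.45, adjusted p 0.115 in limma). Those lists therefore share a gene.

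**Figure D4:**
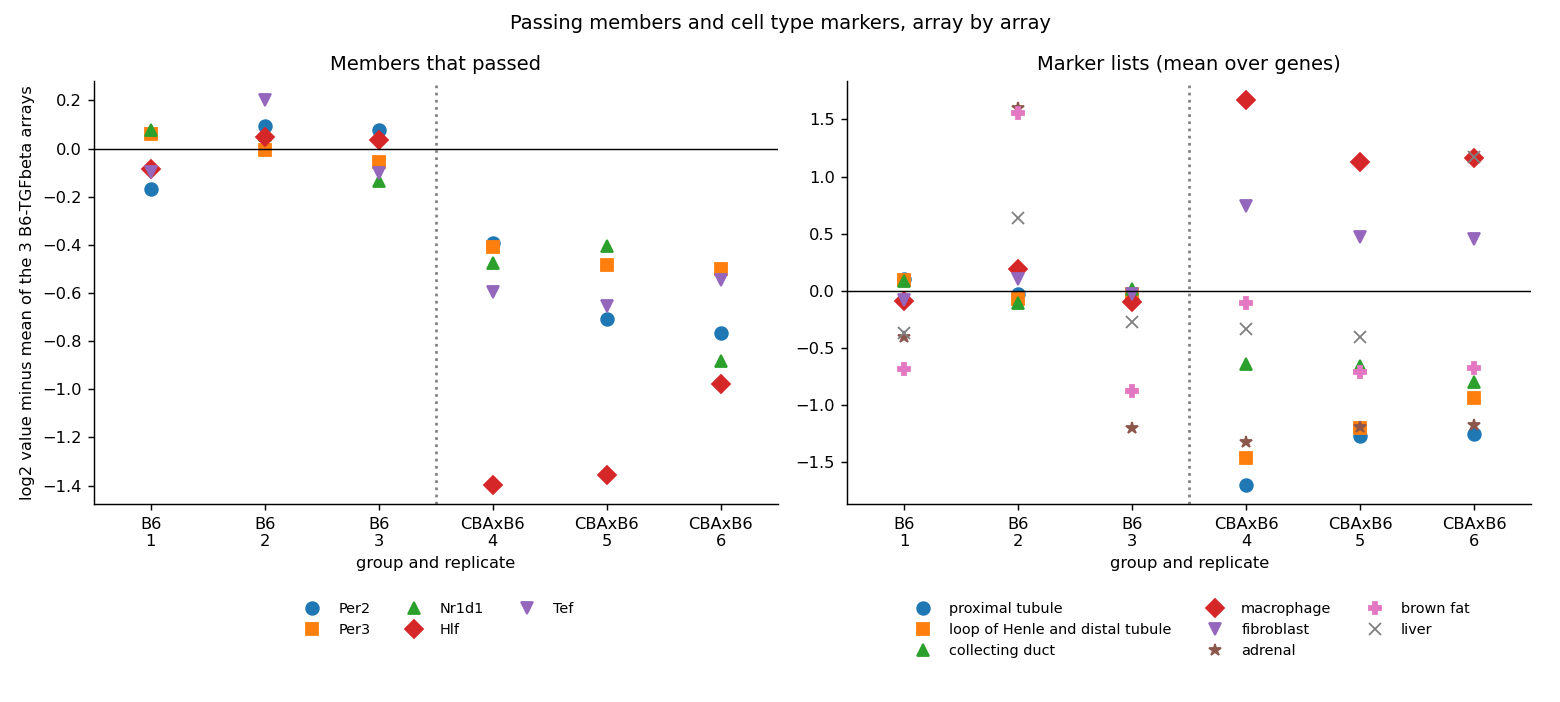
Left, log2 intensity of the 5 genes that passed, and right, mean log2 intensity of each marker list, both minus the mean of the 3 B6-TGFbeta arrays (y axes), for each array (x axis). The 5 genes and the tubule and duct lists lie below zero in all 3 CBAxB6-TGFbeta arrays and the macrophage list above it, while the adrenal and brown fat lists stand high in B6-TGFbeta replicate 2 and the liver list in CBAxB6-TGFbeta replicate 6.

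Some arrays also stood high for genes of brown fat, adrenal or liver. Ucp1 of brown fat was 10.93 in B6-TGFbeta replicate 2 and 5.13 to 6.22 in the other 5 arrays. The mean of the brown fat list was 8.47 in B6-TGFbeta replicate 2 and 6.80 in CBAxB6-TGFbeta replicate 4, against 6.04 to 6.23 in the other 4. Not every gene of the list followed, and Elovl3 was 4.93 in B6-TGFbeta replicate 2 against 4.55 to 4.87 in the other 5. In CBAxB6-TGFbeta replicate 4, Adipoq, Car3 and Cidea stood high, at 6.58, 8.73 and 5.25. Ucp1 and Plin1, at 6.16 and 6.39, lay there within the range of the other arrays. Cox7a1, at 6.82, was lowest in that array. The mean of the adrenal list was 8.70 in B6-TGFbeta replicate 2 and 6.70 in B6-TGFbeta replicate 1, against 5.78 to 5.92 in the other 4. Star, 1 of its steroidogenic genes, was 10.74 and 8.90 in those arrays, against 5.86 to 6.46. Not every gene of the adrenal list followed in B6-TGFbeta replicate 1. There Cyp11b1 was 7.25, against 5.66 to 6.00 in the other 4, and Dbh and Chgb were slightly above the other 4. Cyp11b2 and Th, at 5.95 and 6.31, lay within the 5.66 to 6.12 and 6.07 to 6.45 of the other 4. The liver list stood at 8.59 in CBAxB6-TGFbeta replicate 6 and at 8.06 in B6-TGFbeta replicate 2, against 7.02 to 7.15. Alb was 10.94 and 9.45 in these arrays, against 6.00 to 6.29, and Ahsg 8.27 and 6.92, against 5.36 to 5.84. Not every gene of the liver list followed. In CBAxB6-TGFbeta replicate 6, Serpina1a was 5.64, below the 5.75 to 5.84 of the B6-TGFbeta arrays, and Ttr was 11.45 against 11.02 to 11.35 elsewhere. Without B6-TGFbeta replicate 2 the log2 differences were -1.25 for Hlf, -0.42 for Tef, -0.43 for Per2, -0.44 for Per3 and -0.53 for Nr1d1, and Hlf alone passed (adjusted p 0.0495). With B6-TGFbeta replicate 3 as the only array of its group they were -1.35, -0.49, -0.64, -0.52 and -0.39, and again Hlf alone passed (adjusted p 0.0432), the lone array being taken to vary like the other group. Without CBAxB6-TGFbeta replicate 6 they were -1.44, -0.61, -0.42, -0.36 and -0.43, and Hlf alone passed (adjusted p 0.018).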

How the data were processed

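The deposited table holds log2 intensities, 1 row per exon probe set of an Affymetrix mouse array. RMA and Partek made these values, per the submitters' processing notes, with version, settings and genome build not given in the sources used here. Medians of the arrays were 7.27 to 7.34, and precision is limited by having few arrays. Of 241576 rows, 212097 had 1 gene symbol, 4475 several and 25004 none. Gene values used only the first, while the comparison of single rows and its adjustment ran over all rows. Rows were combined into gene values by Tukey's median polish and compared with limma 3.58.1 in R 4.3.3, with 1 group term, moderated variances and two-sided p-values, over all genes and, singly, over all rows. The scripts were tested on simulated data in which few genes were changed. There the gene comparison recovered 26 of 34 genes with a true log2 difference of -1 and 3 of 33 with -0.5. The comparison of single rows recovered 5 of 370 at -1. In that simulation, differences of -0.5 in genes and of -1 in single rows were thus often missed. It changed few genes, whereas 1562 genes passed in the data, so its rates need not hold for these arrays. The groups share no replicate numbers. The members and all lists were chosen with earlier results of these data known. All members are named, with up to 6 passing genes of each other list, or 2 with the smallest p where none passed. Older symbols were matched through a RefSeq gene table (GRCm38.p6). Alternatives covered scaling, gene summary, filters, moderation, array weights and arrays left out. Leaving out arrays 1 and 2 together, leaving out arrays without recomputing or with the mean of rows, and adding rows that name Per2 or Nr1d1 with another gene were chosen after seeing the data.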

Additional observations from a re-analysis of the deposited data

How the results depend on the processing

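The differences of the 10 clock and PAR bZIP genes kept their sign in all alternatives run. Against 1562 genes, 5 of the 10 members, 0 of 17 other clock genes and 5 of 15 outputs passing, reading each gene from its brightest probe set gave 617, 1, 0 and 1, and the differences of Arntl2 and Klf15 turned to -0.48 and 0.14 there. The mean of the probe sets gave 4 other clock genes and array weights gave 2. With trended and robust moderation 8 member probe sets passed in place of 4. Leaving out each array in turn with recomputed gene values gave 57 to 554 genes, 0 to 1 members, 0 to 1 other clock genes, 0 to 2 outputs and 0 member probe sets. Keeping the gene values of all 6 arrays gave 494 to 1550, 2 to 5, 0 to 3 and 1 to 5. The mean of the probe sets gave 709 to 1746, 3 to 5, 0 to 3 and 3 to 6, so the fall in calls depends on the gene summary as well as on fewer arrays. There, without CBAxB6-TGFbeta replicate 6, Dbp and Nfil3 passed and Per2 and Nr1d1 did not. With B6-TGFbeta replicate 3 as the only array of its group 40 genes, 1 member and 0 outputs passed, and with the mean of the probe sets 100, 1 and 0. No paired analysis was possible because the groups share no replicate numbers. With 3 arrays a group, a p above the threshold does not show that a gene was alike.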

Other observations

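Probe sets that name a member together with another gene were left out of the comparisons above. The 3 probe sets shared by Per2 and 9830107B12Rik had log2 differences of -1.64, -0.81 and -0.14, and none passed over all probe sets (adjusted p 0.168, 0.218 and 0.884 in limma). The first of these had 7.35, 8.41 and 7.95 in B6-TGFbeta and 7.10, 5.57 and 6.12 in CBAxB6-TGFbeta, without overlap. The probe set shared by Nr1d1 and Thra stood at -0.53 (adjusted p 0.361), also without overlap. With these rows added to Per2 and Nr1d1, the same 5 members passed.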
